A study of Mus musculus with 9 samples.

Results

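The comparison described here sets a mouse melanoma line carrying a hairpin against Decr2, named shRNA1, beside the same line carrying a control hairpin. Its differences use 6 of the 9 libraries of the series, 3 per group, over all 10762 genes of the deposited table. The cells are B16.SIY, a C57BL/6 melanoma line that expresses the model antigen SIYRYYGL (SIY) fused with dsRED, a red fluorescent protein, and every group carries that antigen. Stable lines were made by lentiviral infection and puromycin selection, with SHC002 as the control hairpin, and were grown in DMEM with fetal calf serum. The remaining 3 libraries carry another Decr2 hairpin, shRNA2, and are set beside shRNA1 below to show where the lines differed and where they moved alike. They are also part of the fit, so they enter the spread behind every SE, p-value and call against control. Tumors are named in the title of the series, but its labels describe cultured cells. Each hairpin is represented by a stable line, so a property of that line and an effect of its hairpin cannot be told apart. The labels do not say whether replicates 0, 1 and 2 came from separate cultures, so p-values measure only how these libraries vary, and that variation may be technical.

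Decr2 encodes a peroxisomal 2,4-dienoyl-CoA reductase, which removes double bonds so that polyunsaturated acyl chains can be shortened by beta-oxidation. Several of the genes below belong to stress programmes. In the integrated stress response, phosphorylation of the translation factor eIF2 lowers general protein synthesis while the transcription factor ATF4 accumulates and raises genes for amino acid synthesis and import. In the unfolded protein response of the endoplasmic reticulum (ER), the factors ATF6 and XBP1 raise the chaperones that fold secreted and membrane proteins. Interferon-stimulated genes form a further programme, induced by interferons or by sensors of foreign RNA.

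Values are the deposited log2 values, and a difference is the mean of the 3 shRNA1 libraries minus the mean of the 3 control libraries on that log2 scale. Read depth is unknown. In every group replicates 1 and 2 lay closer to each other than to replicate 0. Across genes the median absolute gap between replicates 1 and 2 was 0.074 in the control group, 0.087 with shRNA1 and 0.101 with shRNA2, whereas gaps to replicate 0 were between 0.14 and 0.267. The shRNA1 group had the widest gaps, 0.267 and 0.256 between its replicate 0 and its replicates 1 and 2, and 492 and 411 genes lay more than 1 apart there. The labels give no batch that would name this split. The melanocyte markers Mitf, Sox10, Tyr, Tyrp1, Dct, Pmel and Mlana were all in the table. Of 50 markers of other cell types (blood, vessel, epithelium and connective tissue), 6 were in it (Lck, Kitl, Col1a1, Pdgfrb, Postn and Plvap). Their summed linear level was between 30.7 and 42.0 in the control libraries and between 33.2 and 37.3 in the shRNA1 libraries.

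Decr2 itself read 3.96, 4.10 and 3.71 in the control libraries and 2.87, 2.51 and 3.18 in the shRNA1 libraries. All 3 shRNA1 libraries lay below all 3 controls. The difference was -1.07 (SE 0.23), which leaves 47.6% of the control level (95% confidence interval 33.4 to 68.0), with an adjusted p of 0.0195 in limma's moderated test across all genes, two-sided, adjusted by Benjamini and Hochberg. The knockdown was partial beside that of shRNA2, whose libraries read 0.84, 1.18 and 1.55, and shRNA1 stood 1.66 (SE 0.23) above shRNA2, with an adjusted p of 0.0233. Leaving out control replicate 1 ended the call against control, with an adjusted p of 0.0872. The same was true of control replicate 2, at 0.0537, and of replicate 1 of shRNA1, at 0.0579.

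A gene is called here at an adjusted p under 0.05. With shRNA1, 1336 genes were called, 12.4% of those tested, of which 745 were higher (6.92%) and 591 lower (5.49%) than in the control line. At an unadjusted p under 0.05 there were 3091. Most changes were small. The median size among called genes was 0.51, and 154 genes rose and 24 fell by at least 1. For each of the 1336 called genes, the 3 shRNA1 libraries lay outside the range of the controls, which was true of 3649 genes in all (33.9%). The number of calls depended on a few libraries. On leaving out control replicates 1 and 2 in turn it was 339 and 328, and on leaving out shRNA1 replicates 1 and 2 in turn it was 755 and 648, whereas 3711 genes were called when the 3 libraries numbered 0 were left out. With the replicate number as a block the count was 2646 (1438 higher and 1208 lower), all 1336 among them. Fitted without the shRNA2 libraries it was 675.

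The direction of the calls changed with the level of the gene. In the 25% of genes with the lowest mean value, 299 were higher and 56 lower, and the median difference was 0.153. In the highest 25%, 73 were higher and 279 lower, with a median difference of -0.091. The values were thus less spread in the shRNA1 libraries, whose interquartile range across genes was 2.30 to 2.45, against 2.50 to 2.57 in the controls. The narrowest was that of shRNA1 replicate 0. The shRNA2 libraries were also narrower than the controls, at 2.39, 2.41 and 2.43, so this narrowing is not particular to shRNA1. How much of the called set this narrowing carries was not tested. With the lowest 25% of genes removed, the balance turned to 436 higher and 526 lower, and with each library centred to a common median it was 696 higher and 675 lower. Genes in the highest 25% by GC content were more often higher (8.8%) than lower (3.0%).

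**Figure D1:**
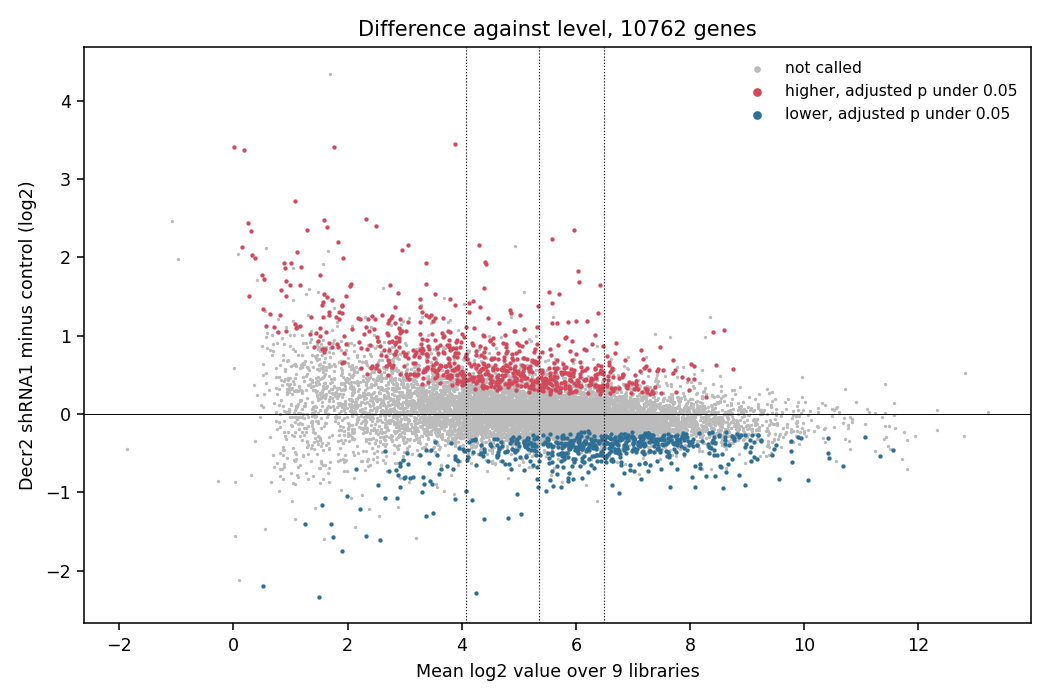
Difference between Decr2 shRNA1 and control (log2, vertical axis) against the mean deposited log2 value over 9 libraries (horizontal axis), 1 point per gene for 10762 genes. Red points are the 745 genes called higher, blue points the 591 called lower and grey points the rest, and dotted lines divide the genes into 4 equal sets by level. Red points gather on the left and blue points on the right.

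Among genes above the median level over all 9 libraries, the largest rises were led by stress genes and enzymes of amino acid metabolism. Most of these genes pass that level only through the hairpin lines, as given below. Trib3, a pseudokinase induced by ATF4 and CHOP, read 4.06, 4.28 and 4.21 in control and 5.79, 6.92 and 6.88 with shRNA1. Chac1, which degrades glutathione, read 3.47, 4.10 and 4.19 against 5.30, 6.57 and 6.60. Aldh1l2, a mitochondrial folate enzyme, read 5.24, 4.65 and 4.67 against 6.48, 6.68 and 6.89. All 3 genes separated fully, and for each the lowest shRNA1 library was replicate 0. Their differences were 2.35 (SE 0.27, adjusted p 0.00209), 2.23 (SE 0.35, adjusted p 0.00627) and 1.83 (SE 0.18, adjusted p 0.00136). Other rises by this rule were in Atf5, Pck2, Bcat1, Sesn2, Psph, Nr4a3, Gpt2 and Pmp22, with differences from 1.68 down to 1.17. Nr4a3, a nuclear receptor induced early after stimulation, differed from Trib3 across replicates. Nr4a3 read 7.54 in shRNA1 replicate 0, above the 6.49 and 6.61 of its replicates 1 and 2.

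The largest falls above the median level were of mixed function. The level is a mean over all 9 libraries, which a change itself moves, so the sizes of these rises and falls are not compared. Of the rises named above, only Nr4a3 and Pmp22, with control means of 5.58 and 5.41, exceeded the median of 5.35 in the control group. Trib3 and Chac1, with control means of 4.18 and 3.92, passed it only through the hairpin lines. The same held for Aldh1l2 (4.85), Atf5 (4.87), Pck2 (5.3), Bcat1 (4.8), Sesn2 (4.65), Psph (4.66) and Gpt2 (5.15). Mest, described below with a control mean of 5.61, falls under that median. Megf10, an engulfment receptor, read 7.84, 7.25 and 7.16 in control and 6.64, 6.34 and 6.25 with shRNA1, a difference of -1.01 (SE 0.26, adjusted p 0.0362). Itga4, the integrin alpha 4 subunit, read 8.10, 8.20 and 8.19 against 6.95, 7.42 and 7.31, a difference of -0.94 (SE 0.14, adjusted p 0.006). Tfrc, the transferrin receptor through which cells take up iron, read 9.28, 9.61 and 9.54 against 8.17, 8.73 and 8.81, a difference of -0.91 (SE 0.17, adjusted p 0.0115). In all 3 genes the shRNA1 libraries stayed below the controls, and for Itga4 and Tfrc the lowest was replicate 0. Snx30, Gxylt2, Mtdh, Enc1, Ccne2 and Hmga2 fell by between 0.90 and 0.98. The ER genes Creld2, Sdf2l1 and Hspa5 closed this group with differences of -0.85, -0.85 and -0.84.

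**Figure D2:**
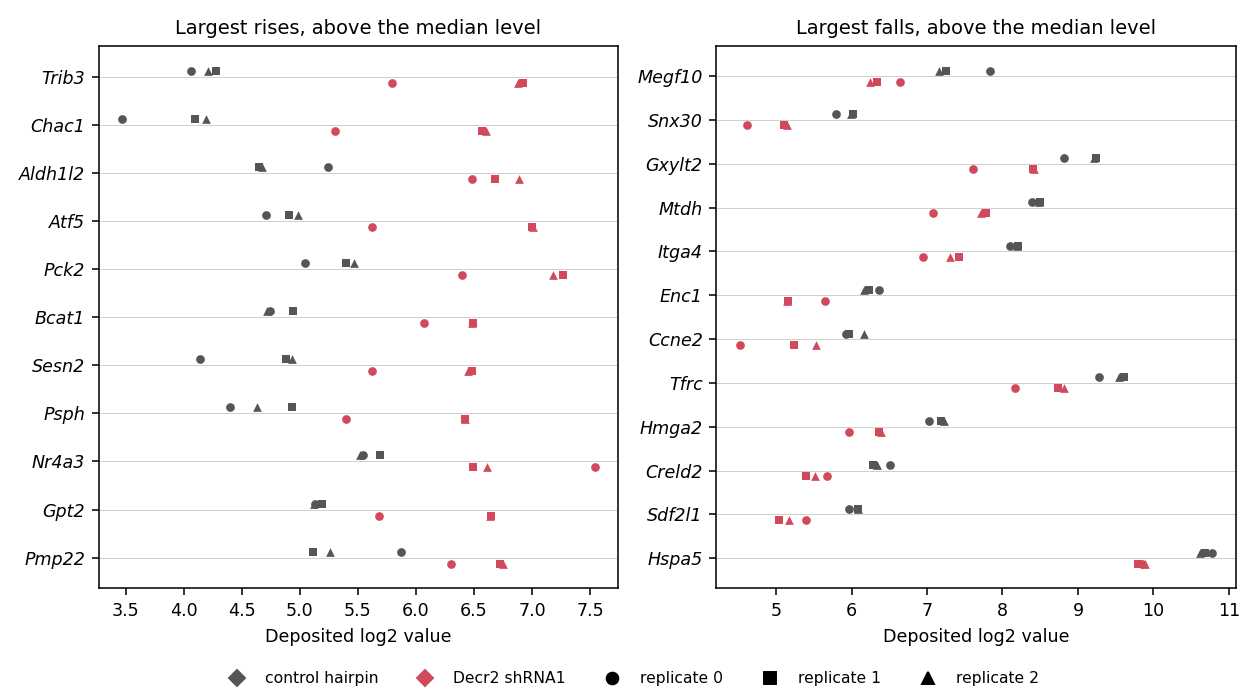
Deposited log2 values (horizontal axis) of 11 of the 12 genes with the largest rise (left) and the 12 with the largest fall (right) among called genes above the median level. Each point is 1 library, grey for control and red for Decr2 shRNA1, and its shape gives the replicate number. The groups do not overlap for any of these genes, which the rule for choosing them required, and replicate 0 of shRNA1 (circle) often stands apart.

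Most stress factors rose. Of 18 measured genes of the ATF4 and CHOP programme, 11 were called higher (61.1%, against 6.92% of all genes), and the median difference was 1.0, against 0.00179 over all genes. Without the libraries numbered 0 the count was 16, and with any 1 library left out it was between 9 and 14. No member was called lower by limma, nor was any lower at an unadjusted p under 0.05. Atf4, the central factor, read 7.58, 7.94 and 7.96 in control and 8.38, 9.13 and 9.20 with shRNA1. Ddit3, the gene of CHOP, read 4.43, 4.07 and 4.21 against 5.06, 5.18 and 5.23. Both separated fully, by 1.07 (SE 0.22, adjusted p 0.0173) and 0.92 (SE 0.10, adjusted p 0.00187). Nupr1, a small stress-induced chromatin protein, read 1.87, 1.38 and 1.38 against 4.57, 5.18 and 5.24, a rise of 3.45 (SE 0.22) or 10.9-fold with an adjusted p of 0.000194. Ddit4 and Sesn2, which restrain the growth kinase mTORC1, rose by 1.17 (SE 0.13, adjusted p 0.00166) and 1.54 (SE 0.26, adjusted p 0.00872). The members not called had differences from 0.25 for Tnfrsf10b to 1.12 for Atf3, which was called with the replicate block (adjusted p 0.00555).

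Replicate 0 of shRNA1 showed the smallest response in this group. The median difference of the members between libraries of the same number was 0.67 for replicate 0, 1.15 for replicate 1 and 1.10 for replicate 2. Atf5 read 5.62 in replicate 0 and 7.0 and 7.01 in replicates 1 and 2, against 4.71 to 4.98 in control.

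Some of these promoters hold the sequence that ATF4 with a C/EBP partner can bind, the C/EBP-ATF response element, searched as TGATGNAA on both strands from 250 bases before to 50 after the RefSeq start site (assembly GRCm38.p6). The element was present in 2.6% of the 8598 genes of the table with such a window, in 4.9% of genes called higher and in 1.3% of genes called lower. It was present in 4 of 10 called stress factors with a window, and in 5 of 15 measured ones (33.3%). Of the amino acid enzymes, 2 of 4 called and 4 of 13 measured (30.8%) held it. It was as frequent among the tRNA synthetases, of which 0 were called higher, at 5 of 15 measured (33.3%), and it was in 2 of 13 measured transporters but 0 of 2 called ones. None of 14 measured serine and folate enzymes held it. Stretches are shown for 4 called genes of these lists in which the whole element lies before the start site. Other called genes that hold it are not shown. Capitals mark the element, or its complement where it lies on the opposite strand. The stretches run 5′ to 3′ along the strand of the gene. They are chr2:119351034-119351071 (plus strand) for Chac1, chr7:126625558-126625595 (minus strand) for Nupr1, chr14:55540148-55540185 (plus strand) for Pck2 and chr11:120643829-120643866 (minus strand) for Pycr1.
Chac1: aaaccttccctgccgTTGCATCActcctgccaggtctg
Nupr1: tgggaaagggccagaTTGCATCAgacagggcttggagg
Pck2: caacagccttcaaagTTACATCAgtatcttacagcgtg
Pycr1: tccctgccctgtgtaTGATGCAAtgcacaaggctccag
The element begins 193, 110, 103 and 103 bases before the start site in these 4 genes. A match of letters describes the window and does not show binding.

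Enzymes of amino acid synthesis rose in part. Of 18 measured, 5 were called higher (27.8%, against 6.92% of all genes), with a median difference of 0.28. Cth, which makes cysteine from cystathionine, read 3.0, 3.23 and 3.18 in control and 4.33, 5.44 and 5.38 with shRNA1, a rise of 1.91 (SE 0.35, adjusted p 0.0116). Pycr1, of proline synthesis, rose by 1.53 (SE 0.29, adjusted p 0.0129). Pck2, the mitochondrial phosphoenolpyruvate carboxykinase, read 5.04, 5.40 and 5.47 against 6.40, 7.27 and 7.18. Bcat1, which transaminates branched-chain amino acids, read 4.74, 4.94 and 4.72 against 6.07, 6.49 and 6.48. Both genes separated fully, by 1.64 (SE 0.26, adjusted p 0.00678) and 1.55 (SE 0.13, adjusted p 0.000591). Gpt2, an alanine transaminase, completed the set at 1.18 (SE 0.25, adjusted p 0.0196). Asns, asparagine synthetase, read 6.92, 7.75 and 7.71 in control and 7.95, 9.08 and 9.07 with shRNA1 and missed the threshold (1.24, SE 0.39, adjusted p 0.0713), but was called with the replicate block (adjusted p 0.000138). It was named after its values were seen. Among members that were not called, Got1 differed by -0.05, Oat by -0.05 and Glud1 by -0.04. With the replicate block 8 were called higher and 1 lower, and without the libraries numbered 0 there were 8 higher and 5 lower. Without control replicate 1 or control replicate 2, 3 were called higher.

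Of 17 measured folate and serine enzymes, 2 rose (11.8%, against 6.92% of all genes) and 3 fell (17.6%, against 5.49%). Psph, the last enzyme of serine synthesis, read 4.40, 4.93 and 4.63 in control and 5.40, 6.42 and 6.42 with shRNA1 (1.42, SE 0.32, adjusted p 0.024), and Aldh1l2 has been described above. Among those that fell were Tyms, which makes thymidylate, and Gcsh of the glycine cleavage system, by 0.49 and 0.37. Phgdh, Psat1, Shmt2 and Mthfd2 had differences of 0.35, 0.41, 0.60 and 0.98 and were not called, but all 4 were called with the replicate block, with adjusted p of 0.0368, 0.0469, 0.00659 and 0.00109. Calls in this group numbered 7 higher and 5 lower with the replicate block and 8 higher and 5 lower without the libraries numbered 0. Dropping replicate 0 of shRNA1 gave 5 higher and 4 lower, and leaving out control replicate 1 or 2 gave 1 of each.

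Of 18 amino acid transporters 4 rose (22.2%, against 6.92% of all genes). Slc1a5, a glutamine carrier, read 6.01, 5.78 and 5.85 in control and 6.63, 6.87 and 6.76 with shRNA1, a rise of 0.87 (SE 0.10, adjusted p 0.00206). Slc3a2 and Slc7a5, the chains of the large neutral amino acid exchanger, rose by 0.69 (SE 0.12, adjusted p 0.00969) and 0.62 (SE 0.14, adjusted p 0.0239), and Slc38a7 by 0.42 (SE 0.11, adjusted p 0.0349). Slc7a11, the cystine importer, had the largest difference of the list, 2.15, but was not called (SE 0.64, adjusted p 0.06) except with the replicate block (adjusted p 0.000713). It read 2.74, 3.79 and 3.86 in control and 4.06, 6.41 and 6.35 with shRNA1, so that replicate 0 was low in both groups. The called count was 7 with the replicate block, 8 without shRNA1 replicate 0, 10 without the libraries numbered 0, and 2 when replicate 1 or 2 of either group was left out. Of 23 aminoacyl-tRNA synthetases and their partners, Aimp2 (-0.44, SE 0.10, adjusted p 0.0227) and Rars (-0.24, SE 0.06, adjusted p 0.0355) were called lower (8.7%, against 5.49% of all genes). The highest of the 4 equal sets of genes by level held 18 of these 23. In that set 10.4% of genes were called lower, a larger share than the 8.7% of this list. By limma 0 members of the list were called higher, with 2 higher at an unadjusted p under 0.05. This list turned with replicate 0: it gave 8 higher and 3 lower with the replicate block, 6 and 2 without shRNA1 replicate 0, and 11 and 4 without the libraries numbered 0.

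Most ER chaperones fell. Of 24 measured chaperones and folding enzymes, 16 were called lower (66.7%, against 5.49% of all genes) and 1 higher, and the median difference was -0.54. The count called lower stayed between 11 and 16 when any library was left out, and was 17 with the replicate block and 17 without the libraries numbered 0. Hspa5, the chaperone BiP, read 10.78, 10.68 and 10.62 in control and 9.85, 9.80 and 9.89 with shRNA1. Pdia3, a disulfide isomerase that also serves MHC class I loading, read 10.20, 10.10 and 10.15 against 9.56, 9.48 and 9.59. Pdia6, another isomerase, read 9.39, 9.51 and 9.49 against 8.75, 8.87 and 8.96. The groups did not overlap, and replicate 0 was not set off from the others. The differences were -0.84 (SE 0.10, adjusted p 0.00207), -0.61 (SE 0.07, adjusted p 0.00262) and -0.60 (SE 0.09, adjusted p 0.00477). Sdf2l1 and Creld2, both induced in the unfolded protein response, fell by 0.85 each, with SE 0.11 and 0.12. Hyou1, Manf and Pdia4 were among the other called members, at -0.70, -0.75 and -0.74. Across replicate numbers the median difference of the list was -0.56, -0.57 and -0.46. The member called higher was Sil1, a nucleotide exchange factor of BiP, at 0.42, and its call was lost when any 1 of the 9 libraries was left out.

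The response element through which ATF6 acts in such promoters, the ER stress response element, was searched by its letters CCAAT and CCACG with 9 bases between them, on both strands of the same windows. It was present in 17 of 8598 promoters (0.2%). Of 13 ER chaperones that were called lower and had a window, 7 held it (Calr, Canx, Creld2, Dnajc3, Hsp90b1, Hspa5 and Pdia6). The stretches are shown for 4 of them, so that the fallen genes can be set beside the risen genes above. They are chr2:34772010-34772058 (plus strand) for Hspa5, chr8:84847060-84847108 (minus strand) for Calr, chr15:88819505-88819553 (plus strand) for Creld2 and chr12:17266476-17266524 (plus strand) for Pdia6, with the element and its spacer in capitals.
Hspa5: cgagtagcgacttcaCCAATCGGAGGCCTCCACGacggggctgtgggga
Calr: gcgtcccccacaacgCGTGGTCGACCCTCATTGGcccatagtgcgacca
Creld2: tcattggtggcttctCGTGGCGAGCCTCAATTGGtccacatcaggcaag
Pdia6: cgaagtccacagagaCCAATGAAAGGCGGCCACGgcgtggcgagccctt
In Calr and Creld2 the element lies on the opposite strand. Calr, calreticulin, read 10.23, 10.10 and 10.05 in control and 9.45, 9.19 and 9.24 with shRNA1, a difference of -0.83 (SE 0.16, adjusted p 0.0129). Of 23 measured sensors and degradation factors of the same response, 2 were called higher (8.7%, against 6.92% of all genes) and 1 lower (4.3%, against 5.49%). Both shares are near those over all genes, and the median difference was -0.01. Herpud1, of ER-associated degradation, rose by 0.52 (SE 0.14, adjusted p 0.0422), Dnajb2 rose by 0.43 (SE 0.08, adjusted p 0.012) and Derl2 fell by 0.25 (SE 0.07, adjusted p 0.0407). Xbp1 differed by -0.45 and Atf6 by 0.23, and neither was called. Xbp1 was called lower with the replicate block (adjusted p 0.00264). With the replicate block 2 were higher and 4 lower, without the libraries numbered 0 there were 5 of each, and without control replicate 1 there were 0.

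**Figure D3:**
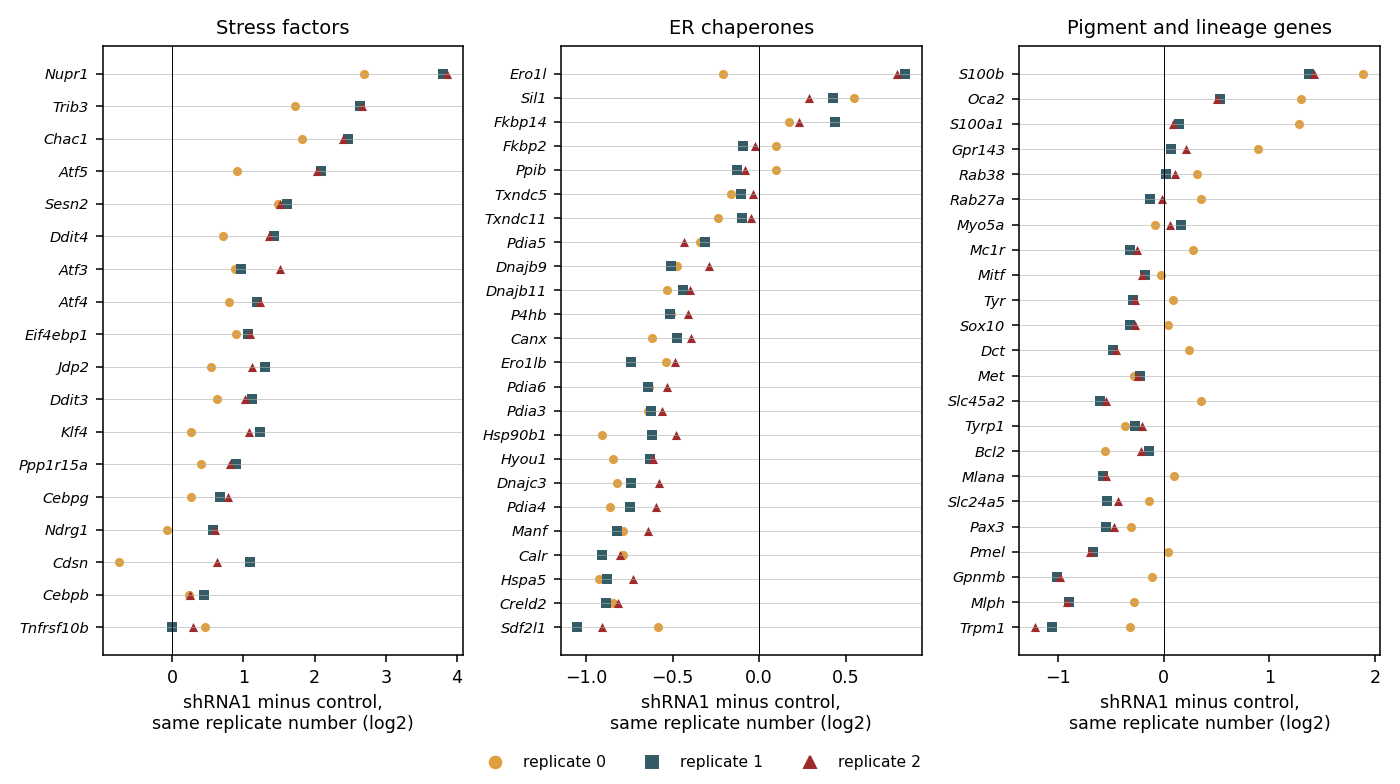
Difference between the shRNA1 and control libraries of the same replicate number (log2, horizontal axis) for each measured stress factor (18 genes), ER chaperone (24 genes) and pigment or lineage gene (23 genes). Circles are replicate 0, squares replicate 1 and triangles replicate 2. The stress factors rise least in replicate 0, the chaperones are similar in all 3, and many pigment genes are lower in replicates 1 and 2 but not in replicate 0.

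Among the coats and cargo receptors that carry proteins between the ER and the Golgi, members of the p24 family changed in both directions. Tmed10 read 7.70, 7.71 and 7.73 in control and 8.77, 8.74 and 8.77 with shRNA1, a rise of 1.05 (SE 0.06) with an adjusted p of 8.74e-05. Tmed2 read 8.58, 8.43 and 8.43 against 7.69, 7.81 and 7.88, a fall of 0.69 (SE 0.08, adjusted p 0.00206). Tmed5 read 6.47, 6.66 and 6.66 against 5.80, 6.00 and 6.06, a fall of 0.65 (SE 0.10, adjusted p 0.00512). The libraries of each group lay close together for Tmed10. Tmed7 and Tmed8 were also called lower, with differences of -0.39 and -0.41, and Copb2, a coatomer subunit, fell by 0.29 (SE 0.06, adjusted p 0.0195). Copz2, another coatomer subunit, was called higher at 0.37. In the whole list of 30 genes, 2 were called higher (6.7%, against 6.92% of all genes) and 5 lower (16.7%, against 5.49%). With the replicate block 3 were higher and 10 lower, and without the libraries numbered 0 there were 4 higher and 14 lower. Without control replicate 1 or control replicate 2, 1 was higher and 2 were lower.

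Of 47 factors of RNA polymerase I and rRNA processing, which build ribosomes, 15 were called lower (31.9%, against 5.49% of all genes), 32 were not called and the median difference was -0.27. Nolc1, a nucleolar phosphoprotein, read 7.5, 7.61 and 7.66 in control and 6.89, 6.98 and 6.98 with shRNA1, a fall of 0.64 (SE 0.07, adjusted p 0.00206). Polr1b, a subunit of RNA polymerase I, read 6.13, 6.27 and 6.23 against 5.62, 5.62 and 5.6, a fall of 0.60 (SE 0.07, adjusted p 0.0021). Nop2, an rRNA methyltransferase, and Utp4, of the small subunit processome, fell by 0.49 (SE 0.06, adjusted p 0.00248) and 0.53 (SE 0.08, adjusted p 0.00497). The groups separated fully in all 4 genes. Limma called 0 members higher, and 0 were higher at an unadjusted p under 0.05. The count lower was 26 with the replicate block and 28 without the libraries numbered 0. It was 6 when control replicate 1 or 2 was left out, 8 when shRNA1 replicate 2 was, and 9 when shRNA2 replicate 1 was. Of 77 cytosolic ribosomal proteins 0 were called by limma, 2 were higher at an unadjusted p under 0.05, and the differences ran from -0.18 to 0.23. Rpl10a, which had the smallest p-value, differed by 0.20 with an adjusted p of 0.109. The list moved with replicate 0, its median difference being 0.20 in replicate 0, -0.10 in replicate 1 and -0.02 in replicate 2, and without the libraries numbered 0 there were 7 members called lower. The 53 nuclear subunits of oxidative phosphorylation also gave 0 calls by limma, with 2 higher and 1 lower at an unadjusted p under 0.05, and median differences of 0.35, -0.13 and -0.04 in the 3 replicates. Atp5a1 of this list was called lower with the replicate block (-0.29, adjusted p 0.0345), and without the libraries numbered 0 there were 8 members called lower. Ribosomal protein genes have many near-identical pseudogenes, so their values are uncertain.

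Chaperones of the cytosol and mitochondria fell in part. Of 27 measured, 5 were called lower (18.5%, against 5.49% of all genes) and 0 higher by limma, with 0 higher at an unadjusted p under 0.05. The median difference was -0.21. The highest of the 4 equal sets of genes by level held 20 of the 27. In that set 10.4% of genes were called lower and the median difference was -0.091. Hsph1, a nucleotide exchange factor of HSP70, read 7.53, 7.96 and 7.85 in control and 6.64, 7.10 and 7.11 with shRNA1, a fall of 0.83 (SE 0.15, adjusted p 0.0113). Hspa8, the constitutive HSP70, read 11.87, 12.02 and 11.93 against 11.59, 11.38 and 11.48, a fall of 0.46 (SE 0.09, adjusted p 0.0131). Dnaja1, a co-chaperone, differed by -0.36. Hspa4 and Cct3, a subunit of the chaperonin that folds actin and tubulin, fell by 0.27 (SE 0.07, adjusted p 0.0292) and 0.33 (SE 0.08, adjusted p 0.0329). The number called lower was 13 with the replicate block and 17 without the libraries numbered 0, and 0 without control replicate 1 or control replicate 2. It was 2 without shRNA1 replicate 1 or shRNA2 replicate 2, and 3 without shRNA1 replicate 2.

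Of 42 measured genes of DNA replication and S phase, 15 were called lower (35.7%, against 5.49% of all genes), 27 were not called, with 0 higher by limma and 0 higher at an unadjusted p under 0.05, with a median difference of -0.26. Cdc6, which loads the replicative helicase, read 6.35, 6.51 and 6.49 in control and 5.64, 5.58 and 5.62 with shRNA1, a fall of 0.84 (SE 0.07, adjusted p 0.000591). Tyms, thymidylate synthase, read 6.99, 7.08 and 6.98 against 6.58, 6.47 and 6.54, a fall of 0.49 (SE 0.07, adjusted p 0.006). Cdc25a, a phosphatase that activates cyclin-dependent kinases, fell by 0.42 (SE 0.07, adjusted p 0.00904). Ccne2, cyclin E2, read 5.93, 5.97 and 6.16 against 4.52, 5.24 and 5.53, a fall of 0.92 (SE 0.24, adjusted p 0.0384). The groups did not overlap in these genes, and for Ccne2 and Cdc25a replicate 0 of shRNA1 was the lowest. Among the other called members were Prim2, a primase subunit (-0.52), Mcm2 and Mcm5 of the helicase (-0.36 and -0.37), Pcna, the sliding clamp (-0.39), and Rrm2 of ribonucleotide reductase (-0.40). The list gave 22 members lower with the replicate block, 28 without the libraries numbered 0, 5 and 4 on dropping control replicates 1 and 2 in turn, and 9 on dropping replicate 1 of shRNA1. Of 40 mitotic genes 1 was called lower (2.5%, against 5.49% of all genes), namely Kif23 (-0.34, SE 0.09, adjusted p 0.0377), and the median difference was -0.16. With the replicate block there were 5, and without the libraries numbered 0 there were 12. It was 0 when any library numbered 1 or 2 was left out. In such bulk libraries fewer cells in a phase and less RNA per cell cannot be told apart.

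Of 24 growth control genes (p53 targets, cyclin-dependent kinase inhibitors and D cyclins, which are not brakes), 4 were called higher (16.7%, against 6.92% of all genes) and 3 lower (12.5%, against 5.49%). Gadd45a, a stress-induced growth arrest gene, read 3.16, 3.36 and 3.37 in control and 4.23, 5.30 and 5.18 with shRNA1, a rise of 1.61 (SE 0.35, adjusted p 0.0209). Cdkn1a, the gene of p21, read 6.52, 6.87 and 7.0 against 7.58, 7.27 and 7.30, a rise of 0.58 (SE 0.13, adjusted p 0.0218). Ccnd1, cyclin D1, read 8.94, 9.23 and 9.23 against 8.56, 8.44 and 8.5, a fall of 0.64 (SE 0.09, adjusted p 0.00442). Replicate 0 of shRNA1 was the lowest of its group for Gadd45a and the highest for Cdkn1a. Gadd45b rose by 0.81 (SE 0.13, adjusted p 0.0077), and Cdkn2d, an inhibitor of cyclin D kinases, fell by 0.40 (SE 0.09, adjusted p 0.0194). The cyclins Ccng2 and Ccng1 were called with differences of 0.52 and -0.42. With the replicate block 10 were higher and 4 lower. Without the libraries numbered 0 there were 13 higher and 4 lower. There were 2 higher and 1 lower on leaving out either of control replicates 1 and 2 or of shRNA1 replicates 1 and 2, and 2 higher and 3 lower without control replicate 0.

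Of 33 measured interferon-stimulated genes, 12 were called higher (36.4%, against 6.92% of all genes) and 21 were not called, and the median difference was 0.57. In the lowest 25% of genes by level, which held 18 of the 33, 11.1% of all genes were called higher and the median difference was 0.153. Limma called 0 members lower, with 1 lower at an unadjusted p under 0.05. Ifih1, the RNA sensor MDA5, read 2.12, 2.74 and 1.92 in control and 3.69, 3.99 and 3.53 with shRNA1, a rise of 1.47 (SE 0.21, adjusted p 0.00457). Ifit1, which binds foreign RNA, read 2.49, 1.92 and 2.08 against 3.28, 3.23 and 3.26, a rise of 1.09 (SE 0.17, adjusted p 0.006). Isg15, a ubiquitin-like modifier, read 1.29, 0.39 and 0.69 against 2.52, 2.16 and 2.03, a rise of 1.45 (SE 0.26, adjusted p 0.011). The groups separated fully for all 3, and the replicates of shRNA1 were alike. Parp12, at a higher value, rose by 0.57 (SE 0.08, adjusted p 0.00497). The other called members included Rsad2 (0.72), Ifitm3 (1.17) and Rtp4, the largest at 2.13. The called count was 19 with the replicate block and 23 without the libraries numbered 0, 6 without control replicate 1, 4 without control replicate 2, and 2 when the lowest 25% of genes were removed, which left 15 of the 33 in the fit. The Ifit genes are close paralogs, so reads may be shared among them.

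The promoter element bound by interferon-activated factors was searched as GAAANNGAAA on both strands. It was in 3.4% of all windows, in 5.2% of genes called higher, in 3.0% of genes called lower and in 14 of 28 measured interferon-stimulated genes with a window, of which 6 were among the 10 called. Ifit1 (chr19:34640770-34640809, plus strand) and Isg15 (chr4:156200866-156200905, minus strand) are shown, with the element in capitals. They have the smallest p-values among the called interferon-stimulated genes with a match wholly before the start site.
Ifit1: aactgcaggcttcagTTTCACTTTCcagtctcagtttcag
Isg15: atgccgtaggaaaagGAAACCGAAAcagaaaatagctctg
In Ifit1 the element lies on the opposite strand and a further match runs past the end of the stretch shown. In Isg15 the match shown overlaps 2 others.

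Of 18 measured genes of MHC class I and peptide loading, 6 were called higher (33.3%, against 6.92% of all genes) and 3 lower (16.7%, against 5.49%). The 3 lower genes, Calr, Canx and Pdia3, are ER chaperones that the list shares with the group above. Tap1 and Tap2, the peptide transporter, read 0.61, 0.90 and -0.07, and 1.11, 1.41 and 0.85, in control, and 1.61, 1.64 and 1.54, and 2.72, 2.01 and 2.28, with shRNA1. They rose by 1.12 (SE 0.27, adjusted p 0.03) and 1.21 (SE 0.25, adjusted p 0.0161). Psme2, a proteasome activator, rose by 0.70 (SE 0.13, adjusted p 0.0115). Psme1, its partner, and Erap1, which trims peptides in the ER, were also called higher, at 0.42 and 0.64. H2-K1, which encodes an antigen-presenting heavy chain and is uncertain because its relatives are nearly identical, read 3.22, 3.04 and 3.19 against 4.42, 3.66 and 4.0, a rise of 0.88 (SE 0.17, adjusted p 0.0139). B2m, the common light chain, differed by -0.06 and was not called. Dropping control replicates 1 and 2 in turn left 2 and 0 called higher, and 3 were left on dropping replicate 2 of shRNA1 or on removing the lowest 25% of genes, which left 11 of the 18 in the fit. The number lower was 1 without control replicate 1 and 2 without control replicate 2.

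Genes of lipid metabolism gave few calls. Of 36 measured peroxisomal genes, a list without Decr2, 3 were called higher (8.3%, against 6.92% of all genes), and the median difference was 0.18. Pex7, the import receptor for a class of peroxisomal enzymes, read 4.79, 4.77 and 4.70 in control and 5.27, 5.12 and 5.33 with shRNA1, a rise of 0.49 (SE 0.10, adjusted p 0.0197). Abcd4 and Pex19 rose by 0.39 (SE 0.10, adjusted p 0.0344) and 0.33 (SE 0.09, adjusted p 0.0498). Limma called 0 lower, with 1 lower at an unadjusted p under 0.05. The count higher was 12 with the replicate block and 11 without the libraries numbered 0, and 0 on leaving out control replicate 1 or 2 or shRNA1 replicate 2. It was 1 when replicate 1 of shRNA1, or replicate 1 or 2 of shRNA2, was left out. Of 24 genes of mitochondrial fatty acid oxidation, 4 were called higher (16.7%, against 6.92% of all genes): Ppard, a lipid-sensing nuclear receptor (0.60, SE 0.14, adjusted p 0.025), Cpt1c (0.91, SE 0.23, adjusted p 0.0365), Echs1 (0.31, SE 0.08, adjusted p 0.0407) and Acadl (0.27, SE 0.08, adjusted p 0.0494). The count was 5 with the replicate block, and 6 higher and 2 lower without the libraries numbered 0. It was 0 without control replicate 1 or 2, 1 when replicate 1 or 2 of shRNA1 or replicate 1 of shRNA2 was dropped, 2 when replicate 2 of shRNA2 was, and 2 higher and 2 lower when replicate 0 of shRNA1 was. Decr1, the mitochondrial counterpart of Decr2, differed by 0.11 and Cpt1a by -0.39, and neither was called.

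Of 22 fatty acid synthesis genes, 3 were called higher (13.6%, against 6.92% of all genes) and 1 lower (4.5%, against 5.49%). Scd1, the stearoyl-CoA desaturase, read 7.17, 7.01 and 6.94 in control and 7.72, 8.01 and 7.97 with shRNA1, a rise of 0.86 (SE 0.10, adjusted p 0.00207). Fasn, fatty acid synthase, read 9.31, 9.05 and 8.95 against 8.64, 8.39 and 8.25, a fall of 0.67 (SE 0.17, adjusted p 0.034). Both genes separated fully. Acacb and Elovl7 rose by 0.80 (SE 0.19, adjusted p 0.0269) and 0.55 (SE 0.12, adjusted p 0.0218). Without control replicate 1 or 2 the list gave 1 higher and 0 lower, and without the libraries numbered 0 it gave 6 and 3. Of 28 cholesterol genes, 4 were called higher (14.3%, against 6.92% of all genes) and the median difference was 0.19. Among them were Abca1, a cholesterol exporter, which rose by 0.87 (SE 0.21, adjusted p 0.0304), and Pmvk, of sterol synthesis, which rose by 0.42 (SE 0.11, adjusted p 0.0373). The cholesterol list had 10 higher with the replicate block, 14 without the libraries numbered 0, 0 on leaving out control replicate 1 or 2 or shRNA1 replicate 2, and 1 and 2 on dropping replicates 1 and 0 of shRNA1.

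Of 26 glutathione and NRF2 genes, 4 were called higher (15.4%, against 6.92% of all genes) and 1 lower (3.8%, against 5.49%). Me1, malic enzyme, read 7.03, 7.01 and 6.85 in control and 7.63, 7.65 and 7.72 with shRNA1, a rise of 0.71 (SE 0.09, adjusted p 0.00307). Nqo1, a quinone reductase, read 1.99, 1.36 and 1.74 against 3.01, 2.85 and 2.87, a rise of 1.22 (SE 0.20, adjusted p 0.00786). Gstm1 and Hmox1, heme oxygenase, rose by 0.71 (SE 0.16, adjusted p 0.0241) and 0.63 (SE 0.15, adjusted p 0.031). Gsto1 was called lower at -0.49. The list gave 6 higher and 3 lower with the replicate block, 6 higher and 8 lower without the libraries numbered 0, and 2 higher when any 1 control library or replicate 1 of shRNA1 was left out. Among 17 iron genes 3 were called higher (17.6%, against 6.92% of all genes) and Tfrc lower (5.9%, against 5.49%). Slc40a1, the iron exporter ferroportin, read 7.84, 7.72 and 7.70 against 8.11, 8.25 and 8.23, a rise of 0.45 (SE 0.07, adjusted p 0.00693). Fbxl5, an iron-sensing ubiquitin ligase subunit, and Hfe rose by 0.32 (SE 0.08, adjusted p 0.026) and 1.24 (SE 0.31, adjusted p 0.032). Without the libraries numbered 0 the list gave 4 higher and 5 lower, and without control replicate 1 or 2 it gave 1 higher and 0 lower.

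**Figure D4:**
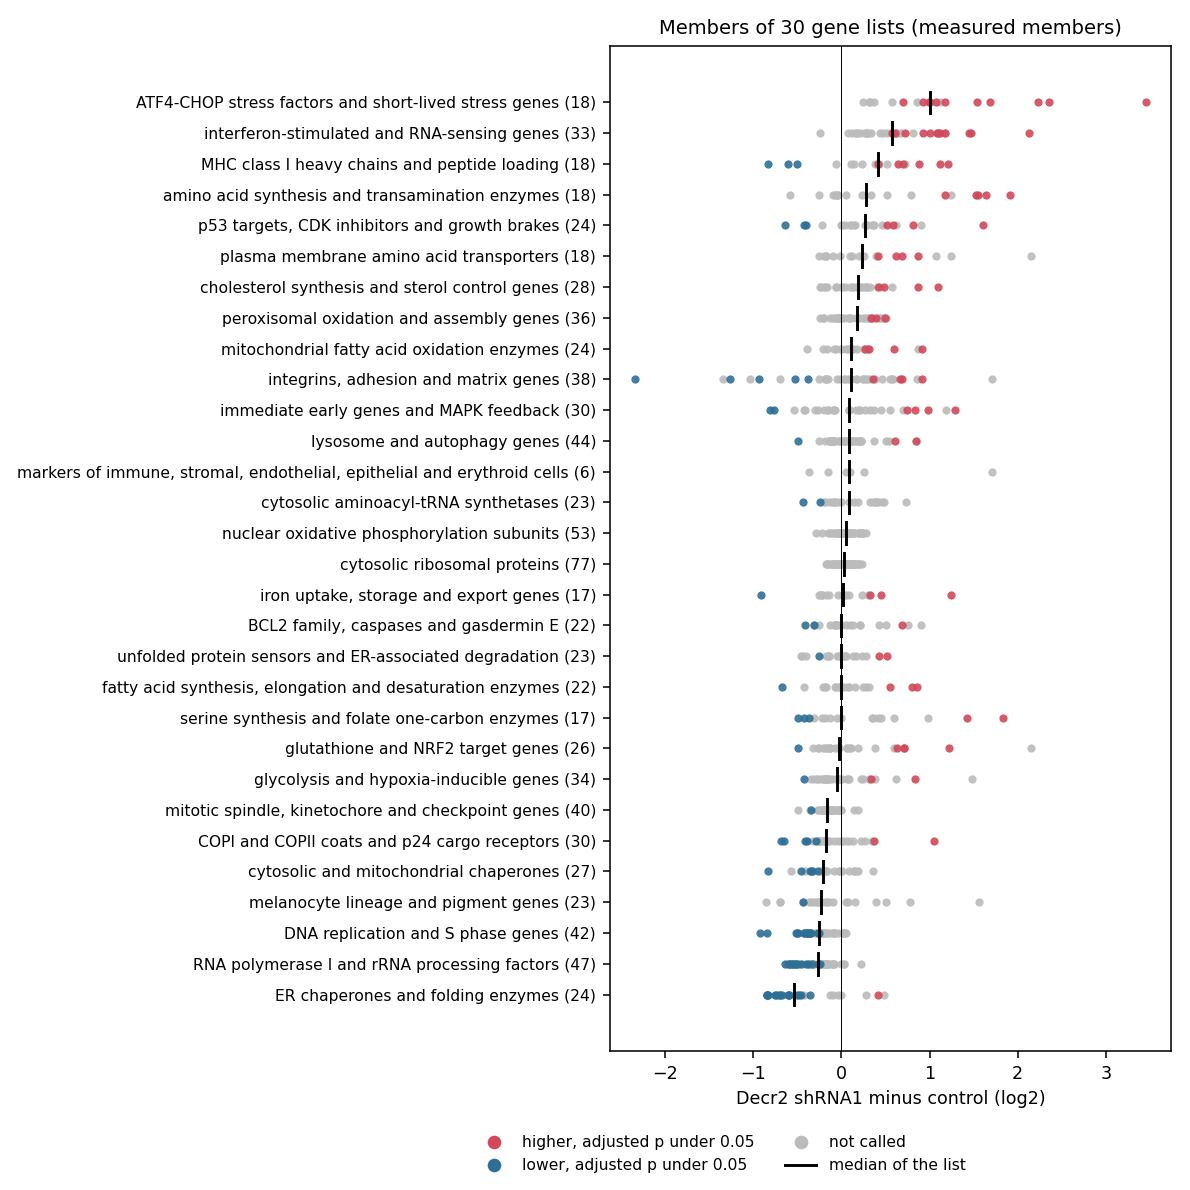
Difference between Decr2 shRNA1 and control (log2, horizontal axis) for the measured members of 30 gene lists, ordered by their median (black bar), with the number of measured members in parentheses. Red points were called higher, blue points lower and grey points neither. Stress factors lie farthest to the right, with a median of 1.0, and ER chaperones farthest to the left, with a median of -0.54.

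Pigment and lineage genes depended on the replicate. Of 23 measured, limma called 1 lower (4.3%, against 5.49% of all genes) and 0 higher, with 2 higher at an unadjusted p under 0.05. The gene called was Pax3, a lineage factor, which read 7.22, 7.32 and 7.29 in control and 6.91, 6.78 and 6.81 with shRNA1, a fall of 0.44 (SE 0.07, adjusted p 0.00786). Pmel, a melanosome fibril protein named after its values were seen, read 11.74, 11.74 and 11.73 in control, and 11.79 in replicate 0 of shRNA1 but 11.07 and 11.03 in replicates 1 and 2. For 8 of the 23 genes the difference was above 0 in replicate 0 and below 0 in replicates 1 and 2. The median difference of the list was 0.04, -0.29 and -0.25 in the 3 replicates. Without the libraries numbered 0, 15 were called lower and 2 higher, and with the replicate block 6 were lower and 2 higher.

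Matrix and adhesion genes included the deepest fall. Ccn2, the gene of connective tissue growth factor, read 3.52, 3.16 and 2.87 in control and 0.78, 0.86 and 0.90 with shRNA1, a fall of 2.34 (SE 0.21, adjusted p 0.000865) to 0.198 of the control level. Sparc, a matrix glycoprotein, read 11.68, 11.58 and 11.58 against 11.30, 10.99 and 10.95, a fall of 0.53 (SE 0.12, adjusted p 0.0218). Timp3, an inhibitor of matrix proteases, read 5.91, 5.6 and 5.59 against 6.41, 6.30 and 6.36, a rise of 0.66 (SE 0.10, adjusted p 0.00497). Each of these groups separated fully. Lamb1 and Timp2 were also called lower, at -1.27 and -0.38, and Lama5, Col4a5 and Itgb5 higher, at 0.91, 0.69 and 0.36. In the list of 38 genes, 4 were called higher (10.5%, against 6.92% of all genes) and 5 lower (13.2%, against 5.49%), and the count was 11 higher and 9 lower with the replicate block and 20 higher and 9 lower without the libraries numbered 0. Without control replicate 1 or 2 or shRNA1 replicate 2 it was 1 higher and 2 lower, and on dropping replicate 1 of shRNA1 it was 1 and 3.

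In the remaining lists few members were called. Over all genes 6.92% were called higher and 5.49% lower. These shares were 5.9% and 2.9% for glycolysis and hypoxia genes, and 4.5% and 2.3% for lysosome and autophagy genes. They were 13.3% and 6.7% for immediate early genes, and 4.5% and 9.1% for cell death genes. Of 34 glycolysis and hypoxia genes, Vegfa, the angiogenic factor, rose by 0.83 (SE 0.14, adjusted p 0.00859), Bnip3l rose by 0.33 (SE 0.08, adjusted p 0.0261) and Slc2a1, the glucose carrier, fell by 0.43 (SE 0.12, adjusted p 0.0406). Of 44 lysosome and autophagy genes, Wipi1 read 4.22, 4.04 and 4.14 in control and 4.99, 5.0 and 4.96 with shRNA1, a rise of 0.85 (SE 0.08, adjusted p 0.00108). Gabarapl1, of the autophagosome membrane, rose by 0.61 (SE 0.09, adjusted p 0.00589), and Atp6v1b2, a proton pump subunit, fell by 0.49 (SE 0.09, adjusted p 0.012). Of 30 immediate early and MAPK feedback genes, 4 were called higher and 2 lower. Nr4a1 read 4.77, 4.92 and 5.03 against 5.73, 5.78 and 5.71, a rise of 0.83 (SE 0.09, adjusted p 0.00166), and its relatives Nr4a3 and Nr4a2 rose by 1.29 and 0.98 (SE 0.29 and 0.21, adjusted p 0.022 and 0.0197). Rhob, a small GTPase induced early, fell by 0.81 (SE 0.09, adjusted p 0.00166). Spry4, a feedback inhibitor of the pathway, and Ier5 were called at 0.74 and -0.77. Of 22 cell death genes, Bcl2l2 rose by 0.69 (SE 0.08, adjusted p 0.00245), and Gsdme and Mcl1 fell by 0.41 (SE 0.09, adjusted p 0.0219) and 0.31 (SE 0.08, adjusted p 0.0339). With the replicate block these 4 lists gave 4 higher and 3 lower, 7 and 2, 7 and 5, and 4 and 2. Without the libraries numbered 0 they gave 5 and 12, 11 and 10, 9 and 11, and 4 and 2. Without control replicate 1 they gave 1 and 0, 2 and 0, 1 and 1, and 1 and 0. None of the 6 measured markers of other cell types was called by limma, with 1 higher at an unadjusted p under 0.05. That was Col1a1, which read 1.14, -1.13 and -1.33 in control and 1.59, 1.23 and 0.97 with shRNA1, so that control replicate 0 lay within the shRNA1 range (difference 1.71, SE 0.61, adjusted p 0.103, or 0.0199 with the replicate block).

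At or below the median level the largest changes were Nupr1, given above, and genes of diverse roles. Rab7b, a small GTPase of endosomes, read 1.02, -1.21 and -1.12 in control and 3.54, 2.55 and 2.82 with shRNA1, a rise of 3.41 (SE 0.56, adjusted p 0.0077). Hrc, a calcium-binding protein, read -2.19, -1.93 and -1.55 against 0.59, 1.86 and 2.0, a rise of 3.37 (SE 0.48, adjusted p 0.00469). Pcdhac2, whose exons are shared within a protocadherin cluster and whose value is uncertain, rose by 3.41 (SE 0.60, adjusted p 0.0102). The groups separated fully, but the control libraries of these genes lie near the bottom of the table, where folds are least certain. Mest, an imprinted hydrolase, read 5.24, 5.71 and 5.87 against 2.69, 3.59 and 3.67, a fall of 2.29 (SE 0.30, adjusted p 0.00329). Nid1, a basement membrane protein, and Otulinl fell by 1.61 (SE 0.34, adjusted p 0.0187) and 1.74 (SE 0.29, adjusted p 0.00859). Sptb, a spectrin chain, fell by 2.20 (SE 0.56, adjusted p 0.0361).

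The direct test between the hairpin lines uses no control library in the difference and shows where the lines differed. It called 49 genes, 0.455% of those tested, 25 higher and 24 lower with shRNA1, and 1081 at an unadjusted p under 0.05. Of the 49, 34 were also called with shRNA1 against control and 21 with shRNA2 against control. The count was 201 with the replicate block and 955 without the libraries numbered 0, and between 3 and 94 when a library was left out. Dropping control replicates 1 and 2 in turn gave 15 and 13 calls. Dropping each shRNA1 library in turn, from number 0 to 2, gave 94, 3 and 4, and the shRNA2 libraries in that order gave 17, 4 and 3. Fitted without the control libraries it was 6. The median SE of a difference between the lines was 0.123. Most changes against control were shared by the lines. Of the 1336 genes called with shRNA1, 1302 had an shRNA2 difference of the same sign, although both differences use the same control libraries. The median differences with shRNA1 and shRNA2 were 1.0 and 1.18 for stress factors and -0.54 and -0.48 for ER chaperones. They were 0.57 and 0.51 for interferon-stimulated genes.

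In some genes the shRNA1 libraries stood away from both other groups. Wdr92 read 4.83, 4.95 and 4.84 in control, 3.40, 3.59 and 3.62 with shRNA1 and 4.75, 4.82 and 4.72 with shRNA2. The shRNA1 libraries lay 1.23 (SE 0.09) below those of shRNA2, with an adjusted p of 0.00118. Cdc42, a small GTPase of cell polarity named after its values were seen, read 8.52, 8.52 and 8.5 in control, 7.75, 7.66 and 7.75 with shRNA1 and 8.52, 8.63 and 8.57 with shRNA2, a difference between the lines of -0.86 (SE 0.06, adjusted p 0.00118). Map2k6, a kinase upstream of p38, read 4.42, 4.25 and 4.23 in control, 3.25, 3.15 and 3.23 with shRNA1 and 4.31, 3.94 and 4.12 with shRNA2 (-0.91, SE 0.11, adjusted p 0.0184). In these 3 genes the shRNA2 mean differed from control by -0.11, 0.06 and -0.18, and none of these differences was called. Pgm2l1, at 1.60, 1.33 and 1.43 with shRNA1 against 2.39, 2.68 and 2.40 with shRNA2, differed by -1.04 (SE 0.17, adjusted p 0.0406). The metabolic genes Me1 and Bcat1 stood higher with shRNA1 than with shRNA2 by 0.78 (SE 0.09, adjusted p 0.0121) and 0.92 (SE 0.13, adjusted p 0.0241). Col9a1, a cartilage collagen chain, read 0.33, -0.29 and 0.23 in control, 2.15, 3.08 and 3.20 with shRNA1 and 0.24, 0.65 and 0.20 with shRNA2 (2.45, SE 0.33, adjusted p 0.0222).

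In other genes the means of the lines lay on either side of control. Crabp2, a retinoic acid carrier, and Kdelc2 stood 2.36 (SE 0.37, adjusted p 0.0404) and 1.12 (SE 0.13, adjusted p 0.0121) higher with shRNA1. Lmo1, Zbtb18 and Dpysl3 stood 1.28 (SE 0.19, adjusted p 0.0278), 1.02 (SE 0.13, adjusted p 0.0186) and 0.88 (SE 0.14, adjusted p 0.0406) lower. Slc26a7, an anion transporter, by contrast, had a difference of -0.05 against control with shRNA1 and of 1.52 (SE 0.24, adjusted p 0.0378) against shRNA2. Among the stress factors Ddit3 was the gene that differed between the lines, at 5.06, 5.18 and 5.23 with shRNA1 and 5.93, 6.01 and 6.01 with shRNA2, a difference of -0.83 (SE 0.10, adjusted p 0.0167). Trib3 and Chac1 had differences between the lines of -0.66 (95% confidence interval -1.27 to -0.05) and -0.49 (-1.27 to 0.29), and Hspa5 of 0.20 (-0.02 to 0.42), none of which was called.

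**Figure D5:**
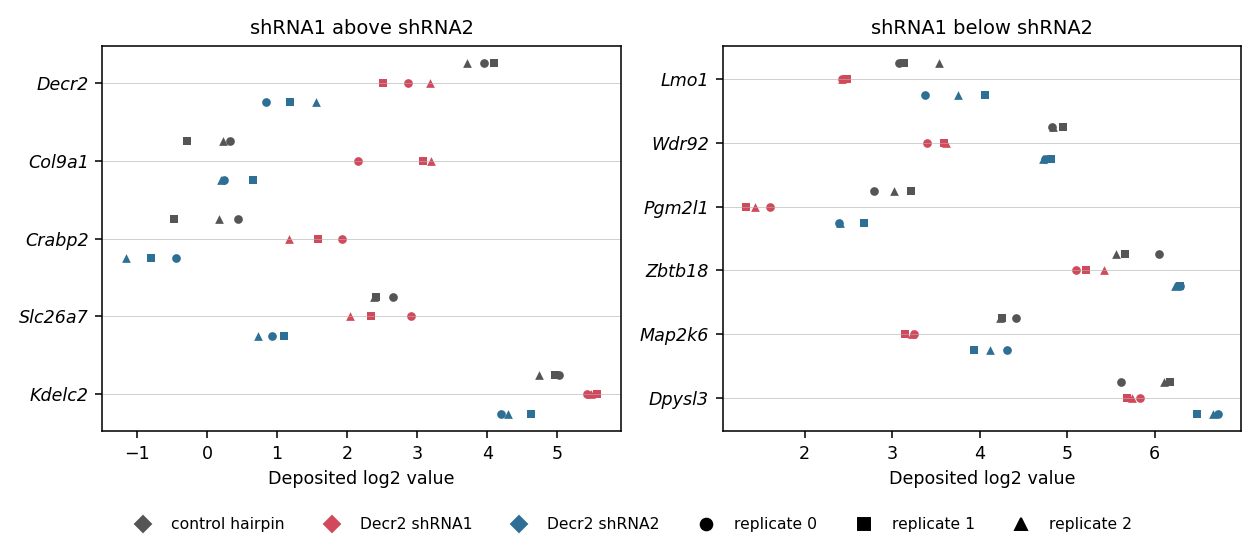
Deposited log2 values (horizontal axis) of 5 of the 6 genes named as highest with shRNA1 relative to shRNA2 (left) and the 6 named as lowest (right), among the 49 called between the lines. Each point is 1 library, grey for control, red for shRNA1 and blue for shRNA2, and its shape gives the replicate number. Red and blue points do not overlap, and for Wdr92 and Map2k6 the blue points lie near the grey ones.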

How the data were processed

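Total RNA from 9 libraries (3 groups of 3) was sequenced. The table the authors deposited holds 1 log2 value per gene and library, beside their own fold changes on a log2 scale, moderated scores and p-values for each hairpin, per the file headers. Kallisto, FastQC and limma were used, per the submitters' processing notes. Tool versions, genome build, annotation, strand setting and filter were not given in the sources used here. As deposited, the log2 values carry no depth: raised to the power of 2 they sum to between 969465 and 1045849 per library. A log2 value of a gene is not known to be scaled for its length, so levels are not compared between genes. Library columns were assigned to a hairpin by the authors' headed comparisons, whose fold changes lay within 0.05 of the assigned columns in 99.95% (shRNA1) and 99.7% (shRNA2) of genes. The authors' scores and p-values were not used for calls. No column of library values lacked a sample. Symbols came from Ensembl identifiers, of which 10759 matched, 3 did not, and 6 symbols were held by more than 1 identifier.

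Differences were tested with limma 3.58.1 (R 4.3.3), with a mean per group, all 9 libraries, an intensity trend in the variance prior, with p-values adjusted across the whole table (Benjamini-Hochberg), and genes were called at an adjusted p under 0.05. The main fit of shRNA1 against control was tested on simulated data with independent noise in each library. Those data lack the split of replicate 0, so that test does not cover it. No filter or pseudocount was used. The alternatives were a replicate block, the compared groups only, no trend, the lowest 25% of genes removed, median centring, array weights, leaving out each library, and leaving out the libraries numbered 0. Same-numbered control and shRNA1 libraries deviated together (r = 0.387, 0.22 and 0.284 across genes), so the numbers were taken to pair. Only number 0 matched in every pair of groups, with 0.496 and 0.644 for shRNA2 replicate 0 against control and shRNA1. Control replicate 1 correlated more with replicate 2 of shRNA1 (0.269) and of shRNA2 (0.302, against 0.216 for replicate 1). Control replicate 2 correlated more with shRNA2 replicate 1 (0.272) than 2 (0.197). For shRNA1 replicate 1 and shRNA2 replicates 1 and 2 the values were 0.126 and 0.531, and for shRNA1 replicate 2 they were 0.353 and 0.505. Pairing of numbers 1 and 2 is thus uncertain. The pairing comes from the data, not from a label. Genes named were Decr2, the 12 largest rises and falls among called, non-overlapping genes with plain symbols above the median level, the 5 of each at or below it, up to 4 called members per list by adjusted p (2 by p where none was called) and 6 of each direction between the hairpins. Further list members were named after their values were seen. Some genes that these rules name are not reported here. These genes, the 30 lists and the tests were chosen with earlier results of these data known. Promoter windows are RefSeq's, assembly GRCm38.p6.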

Additional observations from a re-analysis of the deposited data

Results flagged for a closer look

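The genes named here were chosen for a closer look because the direct test between the Decr2 hairpin lines, limma with all 9 libraries, gave an adjusted p under 0.05. Values are shRNA1 minus shRNA2 on the log2 scale. The difference was 1.66 for Decr2, the targeted gene. Genes higher with shRNA1 were Col9a1 at 2.45, Crabp2 at 2.36, Slc26a7 at 1.52, Kdelc2 at 1.12, Bcat1 at 0.92, Me1 at 0.78 and Nr4a1 at 0.53. Genes lower with shRNA1 were Lmo1 at -1.28, Wdr92 at -1.23, Pgm2l1 at -1.04, Zbtb18 at -1.02, Map2k6 at -0.91, Dpysl3 at -0.88, Ddit3 at -0.83, Cdkn2d at -0.55, Prim2 at -0.50 and Tmed2 at -0.47. Each hairpin is represented by its own line, so hairpin and line cannot be told apart.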

How the results depend on the processing

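Against control, 1336 genes were called (745 higher, 591 lower). Array weights gave 5038 (2526 and 2512), with a weight of 0.132 for shRNA1 replicate 0. The compared groups alone gave 675 (379 and 296), the replicate block 2646 (1438 and 1208) and the fit without the libraries numbered 0 gave 3711 (1893 and 1818). Removing the lowest 25% of genes left 436 higher. Leaving out a library gave 328 to 1579 calls, 198 to 856 higher and 128 to 723 lower. Between the hairpins, 49 genes were called (25 and 24), against 1360 (685 and 675) with array weights, 6 (1 and 5) with the compared groups alone, 201 (112 and 89) with the replicate block and 955 (533 and 422) without the libraries numbered 0. Leaving out a library gave 3 to 94 calls, 0 to 56 higher and 3 to 38 lower. The number of genes whose libraries do not overlap, 3649, was 7683 without the libraries numbered 0 and 4064 to 5827 with a library left out, where fewer libraries make separation easier. The Decr2 difference ran from -1.23 to -0.90 with a library left out. Slc26a7, at -0.05 against control, was 0.03 without control replicate 0 and 0.14 without shRNA1 replicate 2, and ran from -0.29 to 0.14 with a library left out. Values close to 0 changed sign: Glud1 was 0.01 with array weights, and with a library left out Got1 ran from -0.17 to 0.01, Oat from -0.14 to 0.0 and B2m from -0.19 to 0.04. Of 197 differences of single genes, the replicate block added 10 calls, those of Atp5a1, Col1a1, Atf3, Phgdh, Psat1, Shmt2, Mthfd2, Asns, Slc7a11 and Xbp1, and ended 0. The cause of these shifts was not tested. The read depth is unknown, so counting error cannot be given.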
